A study of Mus musculus with 12 samples.

Results

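The 10 genes described here are immediate early genes, taken by symbol from the 24421 gene rows listed in each of 12 libraries of newborn mouse liver and lung. They are Fos, Fosb, Jun, Junb, Egr1, Ier2, Ier3, Atf3, Nr4a1 and Dusp1, and all 10 were found and passed the filter on low counts in both tissues. In liver Fosb passed it through the null libraries. The study set Man1a2-/- (null) newborns against Man1a2+/+ (WT) newborns, with 3 mice of each genotype and a liver and a lung library from each. The null allele, Man1a2tm1.1Ahe, is a germline deletion of exon 2 of an alpha-mannosidase that trims N-glycans, and null pups are known to die with lung failure. The labels name no treatment and no transgene in either group. All pups were decapitated and dissected 30 to 60 min after birth, and the labels give no time, litter or dissection order for a single pup. Whole tissue was used, so a level is an average over every cell type in the piece.

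Immediate early genes are transcribed within minutes of a signal without new protein synthesis, from factors already present in the cell: serum response factor with its ELK and MRTF partners, and CREB, which are switched on by MAP kinases, calcium and cAMP. Most of them encode transcription factors. Fos, Fosb, Jun and Junb form the AP-1 dimers, Egr1 is a zinc finger factor, Nr4a1 is an orphan nuclear receptor and Atf3 is a bZIP factor of the stress response. Dusp1 is a phosphatase that switches MAP kinases off, and Ier2 and Ier3 encode small nuclear and survival-related proteins. The mRNAs are short-lived. In liver the same genes are known to rise after surgery, ischemia and tissue dissociation, and they are therefore often read as a mark of the last minutes before a tissue is lysed.

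The libraries held 26759463 to 42914295 counted reads each. Levels are given as CPM, reads of a gene scaled to a common library size, after TMM scaling over the 12 libraries, so 3 reads corresponded to between 0.0538 and 0.126 CPM. Counts of Xist and Ddx3y gave the same sex for the liver and the lung library of each mouse, with females numbering 1 of 3 WT and 2 of 3 null mice. The targeted gene Man1a2 (chromosome 3, 100562208 to 100685503, minus strand, GRCm38) was at 87.0, 54.2 and 68.6 CPM in WT livers 1 to 3 and at 53.7, 48.2 and 50.2 CPM in null livers 1 to 3. In lung it was at 104.7, 75.5 and 107.3 CPM in WT and at 42.5, 49.8 and 50.2 CPM in null libraries. Every null library was below every WT library of its tissue, although counts over the whole gene do not show the deleted exon itself. By the threshold used throughout (edgeR, adjusted p under 0.05 over all genes tested and at least 1.2-fold), a gene that passed is named called, and Man1a2 was called neither in liver (log2 fold change -0.47, SE 0.17, adjusted p = 0.0809) nor in lung (-1.01, SE 0.18, adjusted p = 0.0614). Without null lung 1, described next, it was called in lung (-0.95, SE 0.16, adjusted p = 0.0043).

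Both null libraries of number 1 stood apart. Null lung 1 went against its label: the summed level of 4 lung epithelium markers (Sftpc, Sftpb, Nkx2-1, Ager) was 98.9 CPM, against 15640 to 21773 CPM in the other 5 lung libraries. In the same library 4 heart markers (Myh6, Nppa, Myl7, Actn2) summed to 11218 CPM and 4 skeletal muscle markers (Acta1, Myh3, Ckm, Tnnt3) to 6944 CPM, against 75.3 to 281.6 CPM and 16.3 to 50.1 CPM in the other lungs. Null liver 1 kept its hepatocyte markers (Alb, Apoa1, Ttr, Serpina1b) at 153100 CPM, within the 116650 to 181820 CPM of the 6 livers, but held 5517.5 CPM of the skeletal muscle and 238.5 CPM of the heart markers, against 2.14 to 3.63 CPM and 0.992 to 2.90 CPM in the other 5 livers. None of the 4 lung epithelium, heart or skeletal muscle markers was at 0 in null lung 1, and none of the 4 skeletal muscle markers in null liver 1. Counts of called genes are therefore given with and without these libraries, and so is each named gene whose call depended on one of them.

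**Figure D1:**
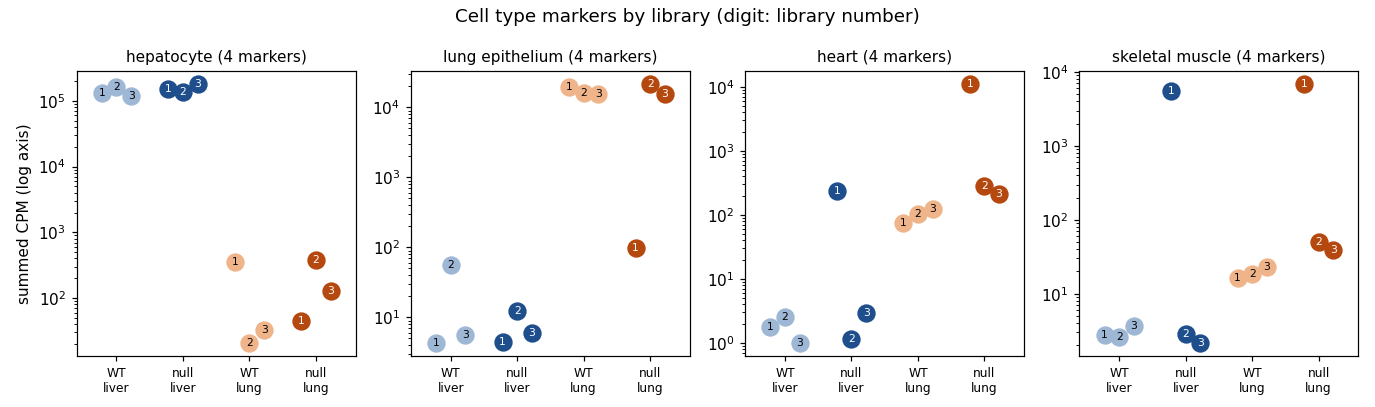
Summed CPM (log axis) of 4 marker genes each of hepatocytes, lung epithelium, heart and skeletal muscle in the 12 libraries, grouped by genotype and tissue, with the library number in each point. Null lung 1 lies at 98.9 CPM for lung epithelium and 11218 CPM for heart, and null liver 1 lies at 5517.5 CPM for skeletal muscle, away from the other libraries of their tissue.

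Because the members are known for cAMP and serum responsive promoters, the 250 bases before each RefSeq transcription start (GRCm38.p6) were searched on both strands. The search was run on 8 of the 10 genes. Egr1 and Ier2 were left out of it, so whether their promoters hold these sites, the serum response factor site included, was not tested. The short CREB site TGACG was in 6 of the 8 (Fos, Fosb, Junb, Atf3, Nr4a1, Dusp1) and in 17.8% of 32851 mouse promoters of the same length. The whole site TGACGTCA, which contains the short site on both strands, was in Dusp1 alone (1.55% of all promoters). The variant TGCGTCA was in Fosb and Nr4a1 (1.75% of all promoters), and the EGR site GCGGGGGCG was in the same pair (2.57%). The TATA sequence TATAAA, searched on the transcribed direction only, was in Fos (7.59%). The AP-1 site TGACTCA (4.46% of all promoters) and the CArG box of serum response factor (1.47%) had no match in the 8 windows. A match is only a match of letters, and no match says only that those letters are not in this window. The 4 promoters below belong to genes compared in liver next and are shown for the number and place of these matches. They read 5' to 3' on the gene's strand and end at the base before the start, and capitals mark the sites named above that were found.
Fos, chr12:85473640-85473889 (+): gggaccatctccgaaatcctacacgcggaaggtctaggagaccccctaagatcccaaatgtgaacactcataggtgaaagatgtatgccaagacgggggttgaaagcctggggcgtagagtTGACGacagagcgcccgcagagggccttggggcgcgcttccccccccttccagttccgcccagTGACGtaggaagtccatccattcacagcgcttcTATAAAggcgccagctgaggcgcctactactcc
Nr4a1, chr15:101266596-101266845 (+): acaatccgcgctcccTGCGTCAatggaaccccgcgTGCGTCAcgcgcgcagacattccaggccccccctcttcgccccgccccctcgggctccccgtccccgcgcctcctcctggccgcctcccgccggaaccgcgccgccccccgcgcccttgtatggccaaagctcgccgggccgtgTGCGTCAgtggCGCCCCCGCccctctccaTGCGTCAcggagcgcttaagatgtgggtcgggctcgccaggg
Atf3, chr1:191183334-191183583 (-): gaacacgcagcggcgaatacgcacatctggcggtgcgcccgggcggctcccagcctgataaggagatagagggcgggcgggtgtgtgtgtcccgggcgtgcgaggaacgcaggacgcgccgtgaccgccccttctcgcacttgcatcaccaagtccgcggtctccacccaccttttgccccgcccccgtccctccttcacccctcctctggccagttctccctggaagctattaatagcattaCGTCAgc
Dusp1, chr17:26508473-26508722 (-): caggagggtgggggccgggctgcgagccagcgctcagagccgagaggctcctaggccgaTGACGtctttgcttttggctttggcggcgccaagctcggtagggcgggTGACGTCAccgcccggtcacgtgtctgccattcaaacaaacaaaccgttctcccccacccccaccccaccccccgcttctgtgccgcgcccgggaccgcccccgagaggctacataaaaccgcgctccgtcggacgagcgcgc
Counted back from the start, Fos held TGACG at -129 and -66 and TATAAA at -33. Nr4a1 held 4 copies of TGCGTCA, at -235, -215, -71 and -42, with a reverse GCGGGGGCG at -60. Atf3 held a single reverse TGACG at -7, and Dusp1 held TGACGTCA at -143 with a further TGACG at -191.

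In WT tissue, levels of the 10 genes differed between genes and between organs. Per length (RPKM over the union of exons, mean ± SD, n = 3), WT liver held most Ier2 (15.9 ± 3.76), followed by Dusp1 (9.73 ± 1.08), Junb (8.19 ± 2.30), Ier3 (6.71 ± 2.54) and Jun (6.34 ± 1.57). Lower levels were measured for Egr1 (2.70 ± 0.89), Fos (2.53 ± 1.10), Atf3 (1.51 ± 0.14) and Nr4a1 (0.978 ± 0.189), and Fosb was lowest (0.0615 ± 0.0448). Of the neighbours in that order, Dusp1 and Junb, Junb and Ier3, Ier3 and Jun, Egr1 and Fos, and Fos and Atf3 lay within 1 SD of each other. WT lung was led by Jun (61.4 ± 1.95), Dusp1 (57.6 ± 5.93), Ier3 (56.0 ± 4.71) and Ier2 (49.6 ± 3.73), which overlapped within 1 SD neighbour by neighbour. Junb (20.2 ± 1.90) and Fos (15.4 ± 4.48) came next and overlapped, then Nr4a1 (8.05 ± 1.58) and Atf3 (7.33 ± 0.63), which overlapped too. Egr1 (2.23 ± 0.72) and Fosb (0.238 ± 0.057) were lowest in lung. With the length of the longest transcript in place of the union of exons, only Egr1 with Fos in WT liver and Jun with Dusp1 in WT lung changed places.

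Set against WT liver, 8 of the 10 genes were called higher in WT lung, where 32.4% of 16155 genes tested were called higher in lung. The log2 differences were 3.27 (SE 0.47) for Jun, 3.06 (SE 0.35) for Ier3, 3.04 (SE 0.55) for Nr4a1, 2.60 (SE 0.70) for Fos and 2.57 (SE 0.44) for Dusp1. They were 2.28 (SE 0.50) for Atf3, 1.64 (SE 0.36) for Ier2 and 1.30 (SE 0.42) for Junb. Fosb (1.96, SE 0.94, adjusted p = 0.0905) and Egr1 (-0.28, SE 0.97, adjusted p = 0.818) were not called. The null libraries enter this fit through the shared estimate of the spread, the filter on low counts and the scaling factors.

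The question put to these genes was whether null organs carried more of the early response than WT organs. In liver they did for most members: 7 of the 10 were called higher in null liver, none was called lower and all 10 fold changes were above 0. Fosb, among those called, was kept by the filter on low counts through the null livers. In the same comparison 26.9% of 14343 genes were called in either direction and 13.5% were called higher. The median log2 fold change of the 10 was 1.85, beside 0.02 over all genes tested. In 6 of the 10 every null liver lay above every WT liver, which held for 23.1% of all genes tested. As these are bulk samples, more transcript per cell and more cells of an expressing type cannot be told apart.

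Among the AP-1 subunits of the Fos family, Fos (chromosome 12, 85473890 to 85477273, plus strand) was at 3.48, 5.74 and 8.66 CPM in WT livers 1 to 3. It was at 24.5, 3.46 and 45.9 CPM in null livers 1 to 3. Null livers 1 and 3 were above all WT livers and null liver 2 was level with the lowest, so the groups overlapped and the log2 fold change of 2.04 (SE 0.79, adjusted p = 0.0906) was not called. Fosb (chromosome 7, 19302696 to 19310051, minus strand), a paralog of Fos that is nearly silent in resting tissue, was at 0.18, 0.70 and 0.27 CPM in WT livers, from 5, 17 and 8 reads. In null livers it was at 7.28, 0.66 and 7.91 CPM, from 193, 19 and 188 reads. The pattern was that of Fos, with null liver 2 inside the WT range, and the log2 fold change of 3.80 (SE 0.93, adjusted p = 0.0226) was the largest of the 10. With so few reads in WT livers, Fosb passed the filter on low counts through the null livers. Its call and the size of its fold change are uncertain to that extent.

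Of the Jun family, Jun (chromosome 4, 95049034 to 95052222, minus strand) was at 14.8, 21.2 and 24.7 CPM in WT and 59.5, 36.7 and 115.4 CPM in null livers. Junb (chromosome 8, 84974484 to 84978718, minus strand) was at 18.7, 13.7 and 24.3 CPM in WT and 47.6, 41.5 and 116.1 CPM in null livers. In both genes all 3 null livers were above all 3 WT livers, with null liver 3 far above the other two. Jun differed by 1.80 on the log2 scale (SE 0.40, adjusted p = 0.0171) and Junb by 1.86 (SE 0.42, adjusted p = 0.0174). Exons of Jun overlap the antisense gene Junos and exons of Junb overlap Prdx2 on the opposite strand, and as no source states how strand was counted, both values are uncertain to that extent. Prdx2 was at 574.2 to 680.5 CPM in WT and 515.5 to 712.6 CPM in null livers, with null liver 3 lowest.

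Egr1 (chromosome 18, 34859823 to 34864984, plus strand), which is driven by serum response factor, had the widest spread of the 10 in liver on the log2(CPM + 0.5) scale. That scale compresses the low levels of Fosb, which ranged more widely as a ratio of CPM. It was at 10.5, 9.16 and 16.7 CPM in WT livers and at 35.9, 8.43 and 145.2 CPM in null livers, so null liver 3 held 145.2 CPM while null liver 2 was below all WT livers. The log2 fold change of 2.38 (SE 0.88, adjusted p = 0.0795) was not called. Nr4a1 (chromosome 15, 101254269 to 101274795, plus strand) was at 4.19, 2.93 and 3.18 CPM in WT and 15.5, 3.29 and 18.5 CPM in null livers. Null liver 2 again lay inside the WT range, and the difference of 1.84 (SE 0.56, adjusted p = 0.0464) was close to the threshold. It was not called without null liver 1 (1.66, adjusted p = 0.071).

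Atf3 (chromosome 1, 191170296 to 191218039, minus strand), which is induced by a broad range of stress signals, was nearly flat in WT livers at 3.45, 3.38 and 2.91 CPM. Null livers held 21.9, 8.15 and 44.8 CPM. Every null liver was above every WT liver, and the log2 fold change of 2.94 (SE 0.56, adjusted p = 0.00985) had the lowest p of the 10. Dusp1 (chromosome 17, 26505590 to 26562128, minus strand), the MAP kinase phosphatase, was at 28.1, 34.4 and 34.1 CPM in WT and 78.0, 43.8 and 123.7 CPM in null livers, without overlap (1.34, SE 0.33, adjusted p = 0.0237). Ergic1 overlaps exons of Dusp1 on the other strand and was at 78.5 to 84.1 CPM in WT and 100.2 to 128.1 CPM in null livers, so a share of the Dusp1 reads could be counted for either gene.

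Ier2 (chromosome 8, 84661331 to 84662852, minus strand) was at 27.4, 17.7 and 27.7 CPM in WT and 51.5, 46.5 and 93.9 CPM in null livers. The groups did not overlap and the difference was 1.39 (SE 0.30, adjusted p = 0.0159). Ier3 (chromosome 17, 35821684 to 35822923, plus strand), an NF-kappaB and p53 target, was at 8.94, 4.29 and 9.55 CPM in WT and 11.4, 11.9 and 13.6 CPM in null livers. It moved least: all null livers were above all WT livers, but the log2 fold change of 0.69 (SE 0.30, adjusted p = 0.123) was not called.

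**Figure D2:**
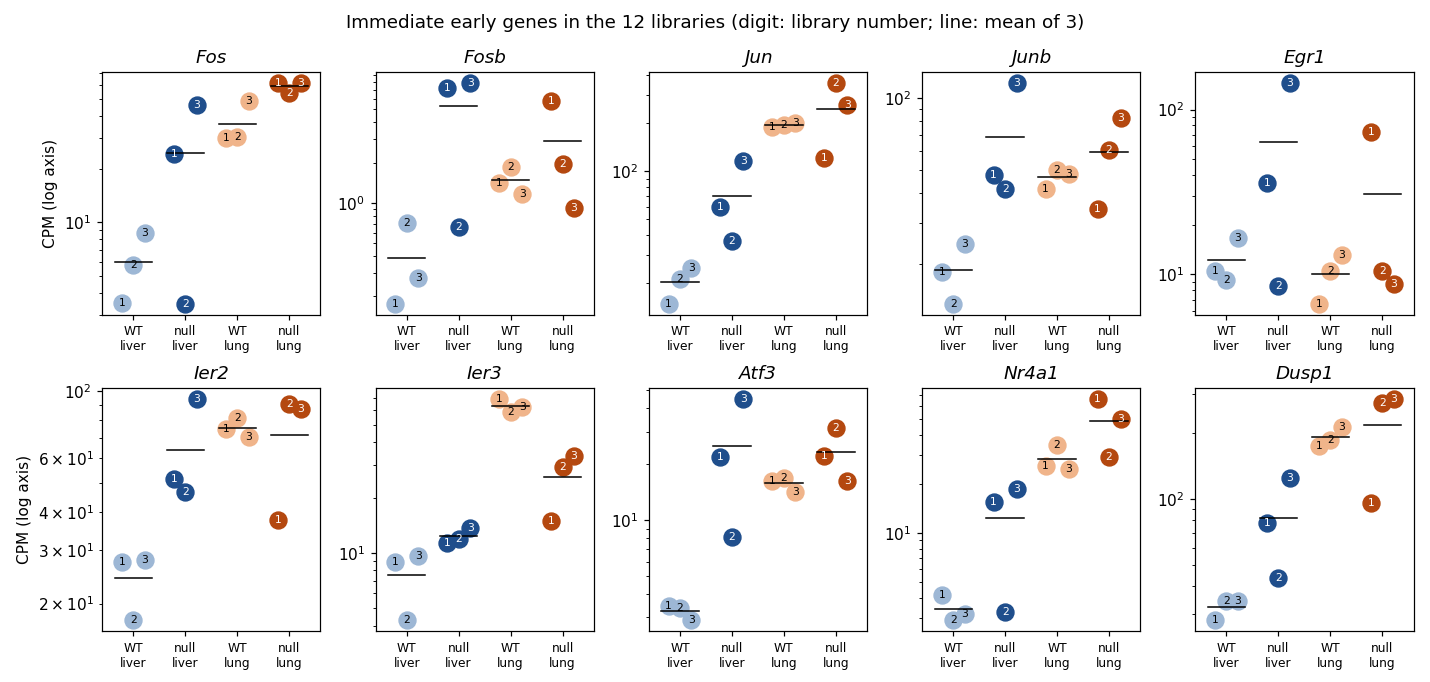
CPM (log axis) of each of the 10 genes in the 12 libraries, in columns for WT liver, null liver, WT lung and null lung; digits give the library number and lines the mean of 3. In liver null library 3 is highest in all 10 panels, and null library 2 falls in or below the WT range for Fos, Fosb, Egr1 and Nr4a1.

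Library by library, the 3 null livers were not alike. Null liver 3 was the highest of the 6 livers for all 10 genes, with a median of 2.57 above the WT mean on the log2(CPM + 0.5) scale. Null liver 1 was second for 9 of the 10, with a median of 1.57, and Ier3 was the exception. Null liver 2 had a median of 0.57: it was above every WT liver for Jun, Junb, Ier2, Ier3, Atf3 and Dusp1, within the WT range for Fosb and Nr4a1, and below it for Fos and Egr1. Summed over the 10 genes, WT livers held 119.6, 113.1 and 152.1 CPM and null livers 353.0, 204.4 and 725.0 CPM. Across the 6 livers, after the mean of each genotype was taken out, 44 of the 45 pairs of members had a positive correlation (median r = 0.81), as a description over 6 libraries in which null livers 2 and 3 supply most of the spread.

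Null liver 3, highest for all 10 genes, held 2.14 CPM of the skeletal muscle markers and 2.90 CPM of the heart markers, and null liver 1, second for 9 of them, held the 5517.5 and 238.5 CPM given above. Without null liver 1, 6 of the 10 genes were called higher, beside 23.8% of all genes tested. The count fell when a WT liver was left out: without WT liver 1 there were 2 (14.8% of all genes tested were then called), without WT liver 2 there was 1 (15.6%) and without WT liver 3 there was 1 (11.3%), while all 10 fold changes remained above 0 in each of these fits. Of the other cell types, summed endothelial markers (Pecam1, Cdh5, Kdr, Tek) were at 234.8 to 242.0 CPM in WT and 256.0 to 275.2 CPM in null livers, with 2 of the 4 called higher. Summed neutrophil markers (S100a8, S100a9, Ngp, Elane, Mpo) were at 1850 to 3968 CPM in WT and 2704 to 4231 CPM in null livers, with 2 of the 5 called higher. Summed macrophage markers (Cd68, Adgre1, Csf1r, Cd163) were at 237.7 to 263.6 CPM in WT and 225.1 to 342.4 CPM in null livers, with 1 of the 4 called higher. Summed mesenchyme markers (Col1a1, Col3a1, Pdgfra, Pdgfrb) were at 1717 CPM in null liver 1, against 319.4 to 418.4 CPM in the other 5 livers, with 1 of the 4 called lower. None of these 4 lists had a marker at 0 in any liver. The part of these cells in the result was not tested.

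**Figure D3:**
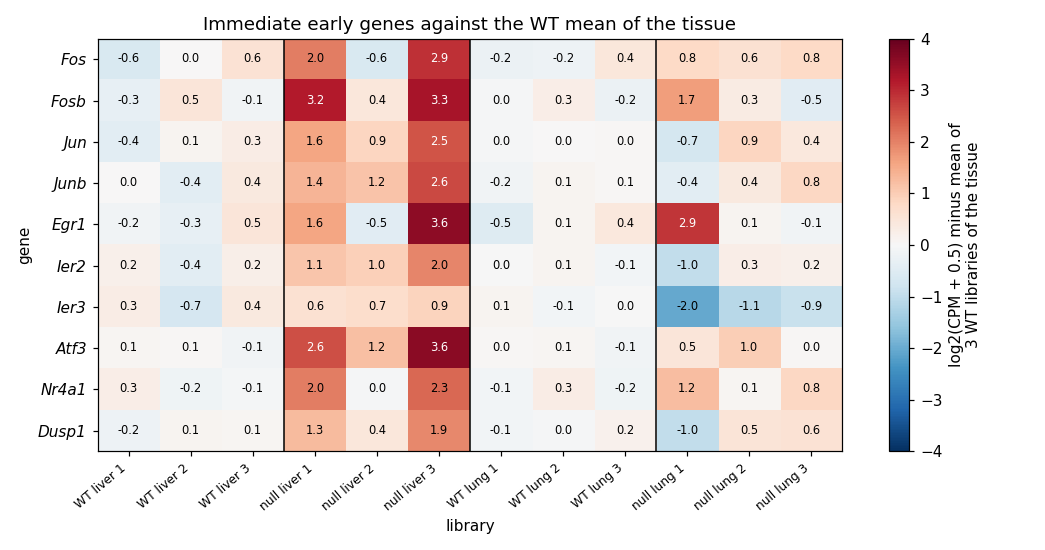
Each cell gives log2(CPM + 0.5) of a gene in a library minus the mean of the 3 WT libraries of the same tissue; rows are the 10 genes and columns the 12 libraries. Null livers 1 and 3 are above 0 throughout, null liver 2 for 7 genes, and null lung 1 ranges from -2.0 for Ier3 to 2.9 for Egr1.

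In lung none of the 10 genes was called between null and WT, where 0.327% of 15591 genes were called, and 2 had an unadjusted p under 0.05. DESeq2 called 1 of the 10, Ier3, which was lower in null lung, beside 15.1% of all genes, and edgeR over the 12 libraries together called 1, beside 14.1%. The median log2 fold change of the members was 0.46, beside 0.06 over all genes. Fos was at 29.8, 30.4 and 48.3 CPM in WT and 61.5, 54.0 and 61.4 CPM in null lungs, with every null lung above every WT lung (0.71, SE 0.22, adjusted p = 0.137). Among all genes 16.3% had every null lung above every WT lung. Ier3 went the other way: it was at 68.9, 58.3 and 62.8 CPM in WT and 14.9, 29.2 and 33.8 CPM in null lungs, and every null lung was below every WT lung (-1.28, SE 0.30, adjusted p = 0.0882). For 19.7% of all genes every null lung lay below every WT lung.

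In the other 8 genes WT and null lungs overlapped, and null lung 1 was at one end in 7 of them. It was highest for Fosb, Egr1 and Nr4a1. Egr1 was at 72.7 CPM there, against 6.60 to 12.99 CPM in the other 5 lungs. Fosb was at 5.79 CPM, against 0.92 to 1.96 CPM, and Nr4a1 at 66.0 CPM, against 24.5 to 49.6 CPM. The same library was lowest for Jun (120.6 CPM, against 189.6 to 357.9 CPM), Junb (34.1, against 41.5 to 82.6 CPM), Ier2 (37.8, against 70.3 to 90.3 CPM) and Dusp1 (95.5, against 174.7 to 283.8 CPM). Atf3 was the remaining gene, at 22.2 CPM in null lung 1, 31.5 and 16.3 CPM in null lungs 2 and 3 and 14.3 to 16.8 CPM in WT lungs.

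Without null lung 1, the 2 other null lungs and the 3 WT lungs gave 5 called genes of the 10, where 37.0% of 15885 genes were called. Jun (0.65, SE 0.13, adjusted p = 0.0089), Junb (0.62, SE 0.16, adjusted p = 0.0186), Fos (0.67, SE 0.22, adjusted p = 0.044) and Dusp1 (0.54, SE 0.12, adjusted p = 0.0105) were higher in null lung. Ier3 was lower (-1.01, SE 0.12, adjusted p = 0.00152). Fosb (-0.05, SE 0.37) and Egr1 (-0.07, SE 0.28) were then on the other side of 0, and Ier2 (0.23, SE 0.10, adjusted p = 0.112), Atf3 (0.59, SE 0.24, adjusted p = 0.0961) and Nr4a1 (0.48, SE 0.24, adjusted p = 0.159) were not called. DESeq2 on these 5 libraries called 6 of the 10, beside 40.5% of all genes. A share of 5 in 10 stood close to the share of all genes called, and each of the 4 positive log2 fold changes was below its liver value.

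**Figure D4:**
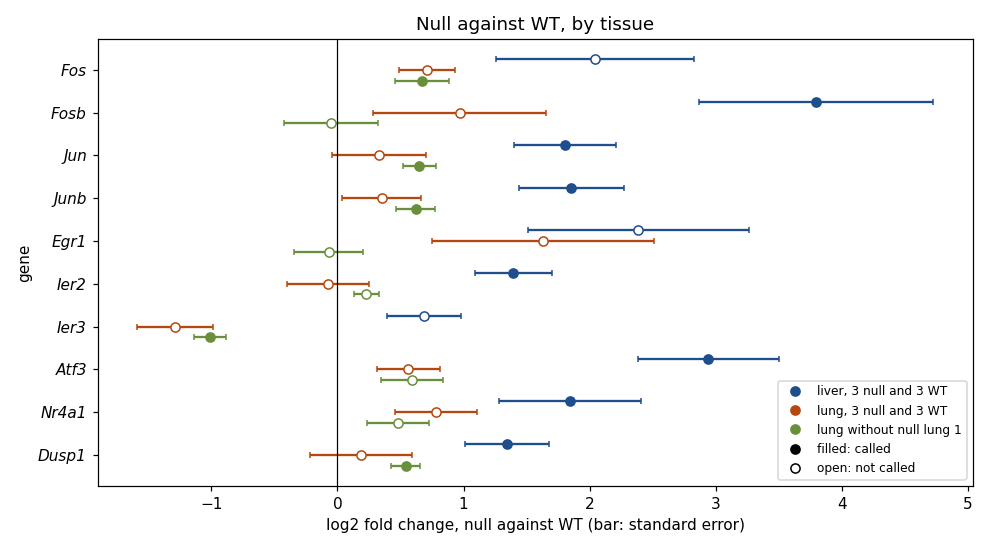
Log2 fold change, null against WT, of the 10 genes (rows) with standard errors, in liver, in lung and in lung without null lung 1; filled points are called and open points are not. Liver values run from 0.69 for Ier3 to 3.80 for Fosb, and the lung values of Jun, Junb, Ier3 and Dusp1 are called only once null lung 1 is left out, as is Fos.

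To compare the organs, the genotype effect in lung minus that in liver was fitted over the 12 libraries together. All 10 values were below 0, with a median of -1.47 beside 0.01 over all genes, and none of the 10 was called, where 0.371% of 16155 genes were called. By DESeq2 2 of the 10 were called, beside 4.17% of all genes, namely Ier3 (-1.96, SE 0.49, adjusted p = 0.00381) and Atf3 (-2.36, SE 0.695, adjusted p = 0.023). In edgeR 6 had an unadjusted p under 0.05. Ier3 was nearest (-1.98, SE 0.46, adjusted p = 0.0953), followed by Atf3 (-2.38, SE 0.68, adjusted p = 0.168). Without both libraries of null mouse 1, Ier3 was called (-1.76, SE 0.35, adjusted p = 0.0201), where 5.18% of genes were called. For the 8 genes other than Ier3 and Atf3, the genotype effects in liver and lung are therefore not shown to differ. For both Ier3 and Atf3, DESeq2 called the difference over the 12 libraries and edgeR did not.

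Lung was then set against liver within the null mice, where 4 of the 10 genes were called higher in lung. Among all genes, 5225 of 16155 tested were called higher in lung and 60.2% were called in either direction. These were Nr4a1 (1.96, SE 0.52), Jun (1.81, SE 0.45), Dusp1 (1.41, SE 0.42) and Ier3 (1.08, SE 0.32). Fos (1.26, SE 0.66, adjusted p = 0.123) was not called, although it was once liver and lung of each mouse were treated as a pair (1.80, SE 0.64, adjusted p = 0.0428). Junb (-0.21), Ier2 (0.17), Atf3 (-0.10), Fosb (-0.87) and Egr1 (-1.04) were not called. Without both libraries of null mouse 1 the same 4 were called higher, and Egr1 was called lower in null lung (-3.02, SE 0.88, adjusted p = 0.00962), where 69.4% of genes were called. Whether the tissue difference itself changed with genotype is the test of the preceding paragraph.

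Other early response genes were also higher in null liver. Of a list of 50 such genes, 45 were tested in liver, 24 were called higher (53.3%, beside 13.5% of all genes) and none was called lower, with 44 of the 45 fold changes above 0 and a median log2 fold change of 1.14. Cyr61, a secreted matrix protein, was at 4.50, 6.11 and 7.08 CPM in WT and 38.4, 11.1 and 40.7 CPM in null livers (2.35, SE 0.46). Btg2, an antiproliferative p53 target, was at 83.5, 77.2 and 86.2 CPM in WT and 263.1, 133.5 and 552.5 CPM in null livers (1.94, SE 0.45). In both genes null liver 2 was the lowest of the null livers and still above all WT livers. Maff, a small bZIP factor (1.92, SE 0.44), Hbegf, a ligand of the EGF receptor (1.80, SE 0.26), and Zfp36, which destabilizes AU-rich mRNAs (1.74, SE 0.34), were likewise called higher. Null liver 3 was above all WT livers for 44 of the 45 genes, null liver 1 for 36 and null liver 2 for 32. The share of all genes for which a single null liver was above all WT livers was not computed. These counts therefore only describe the list. Without null liver 1, 30 genes of the list were called, all higher (23.8% of all genes were then called in either direction). Without WT liver 2 the count was 15 (15.6% of all genes) and without WT liver 3 it was 13 (11.3%).

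**Figure D5:**
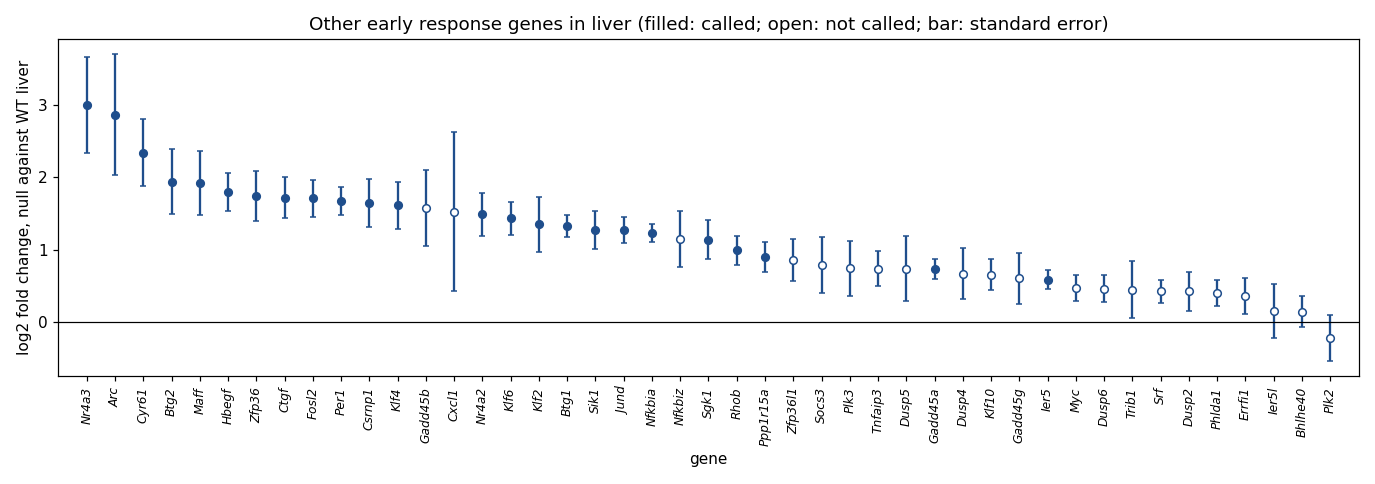
Log2 fold change, null against WT liver, with standard errors for the 45 other early response genes tested, in order of size; filled points are called. All but Plk2 are above 0 and the 24 called genes are all higher in null liver.

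In lung 1 of 49 tested genes of that list was called, beside 0.327% of all genes. It was Bhlhe40, a basic helix-loop-helix repressor of the clock, at 21.8, 26.3 and 22.4 CPM in WT and 54.6, 71.8 and 61.3 CPM in null lungs (1.41, SE 0.15). Its adjusted p was 0.05 when rounded. Of the 6 fits that left out 1 lung, only the 1 without null lung 1 called Bhlhe40 (1.49, adjusted p = 0.000592). The adjusted p reached 0.318 among these fits. Without null lung 1, 26 genes of the list were called, 20 higher and 6 lower, where 37.0% of all genes were called. Null lung 1 was below all WT lungs for 26 of the 49 genes, and null lungs 2 and 3 were above all WT lungs for 33 and 28. The same shares over all genes were not computed, so these counts too are only a description.

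Genes that act upstream of the early response were called in both directions. Of 35 symbols fixed for kinases, coactivators and factors of the serum response factor and CREB routes, 33 were in the files and tested, Srf being in both lists. In liver 13 were called higher and 2 lower, with a median log2 fold change of 0.36, where 26.9% of all genes were called and 13.5% were called higher. Leaving out null liver 1 again gave 13 higher and 2 lower, where 23.8% of all genes were called. Without WT liver 3 the number called was 7, beside 11.3% of all genes. Map2k6, a kinase that activates p38, was at 8.83, 8.75 and 7.15 CPM in WT and 42.0, 24.5 and 35.95 CPM in null livers (2.05, SE 0.21). Crebbp, the CREB coactivator (1.01, SE 0.12), Elk4, a serum response factor partner (0.95, SE 0.14), Crtc3, a CREB coactivator (0.77, SE 0.14), and Mkl2, an MRTF (0.76, SE 0.12), were called higher with no overlap of null and WT livers. In lung none of the 33 was called and 8 had an unadjusted p under 0.05. DESeq2 called 5, beside 15.1% of all genes, and without null lung 1 edgeR called 17, beside 37.0%. The lowest p values in lung belonged to Mapk8, which encodes JNK1 (0.59, SE 0.13, adjusted p = 0.0809), Mkl1 (-0.61, SE 0.14, adjusted p = 0.0857) and Rps6ka4, a kinase of CREB and histone H3 (-1.002, SE 0.24, adjusted p = 0.0888). Without null lung 1 all 3 were called, Mapk8 at 0.54 (adjusted p = 0.0101), Mkl1 at -0.51 (adjusted p = 0.00811) and Rps6ka4 at -0.79 (adjusted p = 0.00223).

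Heat shock genes were also called in both directions. Of 16 tested, 3 were called higher and 2 lower (31.2%, beside the 26.9% of all genes), with a median log2 fold change of 0.20. Leaving out 1 liver at a time gave 2 to 6 called. With null liver 1 left out, 2 were called higher and 1 lower, beside 23.8% of all genes. Hspb1, a small heat shock protein abundant in muscle, was at 3.94, 6.89 and 4.65 CPM in WT and 115.5, 6.68 and 17.7 CPM in null livers (3.17, SE 0.96). Its highest value was in null liver 1, and without that library it was not called (1.25, adjusted p = 0.052). Hspb8 (0.79, SE 0.17) and Hspa4l (0.63, SE 0.11) were called higher. The cytosolic chaperones Dnaja1 (-0.93, SE 0.14) and Hspa8 (-0.64, SE 0.18) were called lower in null liver. Hspa8 was at 874.2, 1409 and 921.8 CPM in WT and 678.3, 664.3 and 709.6 CPM in null livers, so no null liver reached a WT liver. Without null liver 1 Hspa8 was not called (-0.62, adjusted p = 0.066), and leaving out each of the 6 livers in turn kept its call once. In lung none of the 16 was called, 4 had an unadjusted p under 0.05 and DESeq2 called 3, beside 15.1% of all genes. The lowest p values belonged to Hspb8 (1.01, SE 0.17, adjusted p = 0.0596), Bag3, a cochaperone (0.55, SE 0.12, adjusted p = 0.0803), and Hsp90ab1 (0.58, SE 0.20, adjusted p = 0.155). Without null lung 1 these 3 of the 16 were called higher, where 37.0% of all genes were called: Hspb8 at 0.87 (adjusted p = 0.00223), Bag3 at 0.50 (adjusted p = 0.00829) and Hsp90ab1 at 0.45 (adjusted p = 0.00896).

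Among 10466 other genes tested in both tissues, 5 followed the mean of the 10 most closely over the 12 libraries once group means were taken out. They were Ppfibp1 (r = 0.93), Hamp (0.92), Metrnl (0.92), Creb3l2 (0.91) and Ablim1 (0.90), given as a description since the 12 libraries share 4 group means and the highest of many values were picked. The likeness lay in liver, where r over the 6 libraries was 0.96 to 0.99, while over the 6 lungs it was 0.33 for Ppfibp1, -0.91 for Hamp, -0.22 for Metrnl, 0.08 for Creb3l2 and 0.66 for Ablim1. Hamp, the iron hormone hepcidin made by hepatocytes, was at 202.0, 318.8 and 442.5 CPM in WT and 177.9, 46.1 and 599.7 CPM in null livers, and at or below 0.54 CPM in lung. Ppfibp1, a liprin, was at 52.4, 49.6 and 60.7 CPM in WT and 112.9, 78.9 and 148.4 CPM in null livers. In both, null liver 2 was lowest and null liver 3 highest among the null livers. Without both libraries of null mouse 1 the 5 values lay between 0.93 and 0.99 over 10 libraries. Null livers 2 and 3 are then alone in their group, so their deviations from its mean mirror each other. High values for genes picked this way were largely built in and are no separate check. In lung alone the pairs of members did not move together: 19 of 45 pairs had a positive correlation over 6 libraries, with a median of -0.11.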

How the data were processed

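Poly-A selected, stranded libraries of liver and lung from 3 WT and 3 null newborns had been sequenced as paired reads on an Illumina NextSeq. The authors deposited raw read counts per gene, 1 table per library, unnormalized and with no filter stated. The submitters' processing notes name FastQC, STAR 2.5.2a, DESeq2 and the build mm10, and the counting program, annotation and strand setting are not given in the sources used here. Each table lists 24421 rows, of which 2 repeat a symbol and none lacks a name.

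Counts were tested with edgeR 4.0.16 (quasi-likelihood test, TMM factors, filterByExpr, Benjamini-Hochberg over all genes tested) in R 4.3.3, liver and lung apart. A gene was called at an adjusted p under 0.05 and at least 1.2-fold. Comparisons between tissues and the difference of the genotype effects came from 1 fit of the 12 libraries. The SE was taken as the log2 fold change over the root of its F statistic. Printed levels are CPM on factors over the 12 libraries, or RPKM by GENCODE M21 exon length (95.7% of symbols matched), and log2 levels carry a pseudocount of 0.5. The scripts were tested on simulated counts. With 3 against 3 an exact permutation test cannot go below 0.1, so none is given. The floor of 3 reads covers counting error only.

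Samples were grouped by the genotype and tissue of the labels. Liver and lung libraries of the same genotype and number were taken as a pair, since the series takes both organs from each mouse. Sex marker counts matched, and deviations from the group means correlated in all 6 pairs (r = 0.254 to 0.434). Libraries of different numbers were not set beside these values, and sex does not tell null mouse 1 from 2 or WT mouse 2 from 3. The pairing by number was therefore taken and not shown. WT and null libraries of 1 number share only that number. No pair of replicates was alike within sampling noise.

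The 10 members and all lists were chosen with earlier results of these data known. Named beside the members were Man1a2, up to 5 called genes per list and tissue with the largest fold change and a mean of at least 1 log2 CPM (in lung the 3 of lowest p where none was called), and the 5 genes that followed the members' mean most closely among those of at least 3 log2 CPM. Marker genes were used to check the labels. Alternatives were DESeq2 1.42.0, other size factors, other filters, no minimum fold, all 12 libraries in 1 fit, a replicate block, each library left out in turn and the longest transcript as length. The libraries of null mouse 1 were left out together, and DESeq2 was run without them, as choices made after seeing the data.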

Additional observations from a re-analysis of the deposited data

Results flagged for a closer look

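Ier3 was the 1 member whose null libraries lay all above WT in liver (11.4 to 13.6 CPM against 4.29 to 9.55 CPM) and all below WT in lung (14.9 to 33.8 CPM against 58.3 to 68.9 CPM). The test of that difference gave -1.98 on the log2 scale (SE 0.46, adjusted p = 0.0953 by edgeR), and over the single libraries left out the adjusted p ran from 0.0281, without null lung 1, to 0.245.

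Hbegf, of the other early response genes, was at 4.57, 3.22 and 3.56 CPM in WT and 16.2, 9.06 and 14.5 CPM in null livers, but at 32.5, 28.4 and 31.0 CPM in WT and 19.6, 24.8 and 18.1 CPM in null lungs. All null livers were above and all null lungs below their WT libraries. The genotype effect in lung minus that in liver was -2.36 (SE 0.32, adjusted p = 0.0189 by edgeR), and it was the 1 gene of that list called in this test. It was not called with liver and lung of each mouse paired (-2.35, adjusted p = 0.105) or in 8 of the 12 fits that left out 1 library (adjusted p from 0.00691 to 0.0944), while the value stayed between -2.57 and -2.19. Null liver 1 was among the libraries without which the call was lost (-2.19, adjusted p = 0.0568 by edgeR).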

How the results depend on the processing

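In liver the 10 fold changes of the members kept their direction under all alternatives run. Leaving out 1 library at a time gave 1 to 9 called members in liver (main count 7), 13 to 30 other early response genes, 7 to 15 upstream genes and 2 to 6 heat shock genes. The lowest member counts, of 1 and 2, came without a WT liver, where fewer genes were called over the whole table too. With all 12 libraries in 1 fit, 8 upstream genes were called in liver, beside 11.9% of all genes.

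In lung leaving out 1 library gave 0 to 5 members, 0 to 26 early response genes, 0 to 17 upstream genes and 0 to 3 heat shock genes, and leaving out null lung 1, where 37.0% of all genes were called, gave the upper end of each. DESeq2 on the 6 lungs called 1 member, 9 early response genes, 5 upstream genes and 3 heat shock genes, beside 15.1% of all genes, and the 12-library fit called 1, 6, 7 and 3, beside 14.1%. DESeq2 on the 5 other lung libraries called 6 members, 29 early response genes, 21 upstream genes and 4 heat shock genes, beside 40.5% of all genes. The single early response gene called in lung became 0 with DESeq2 size factors in edgeR or with all genes of at least 1 count, and 2 with upper-quartile factors or with at least 10 counts in every library.

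For the difference between tissues, DESeq2 called 2 members, Ier3 and Atf3, beside 4.17% of all genes, and leaving out 1 library gave 0 to 1. Without both libraries of null mouse 1 it was 1. Leaving out 1 library gave 7 to 9 called members in WT lung against WT liver and 3 to 5 in null lung against null liver.

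Directions that reversed were all of values not called. In lung, leaving out 1 library moved Fosb between -0.05 and 1.38, Egr1 between -0.07 and 2.06, Ier2 between -0.26 and 0.23, Jun between -0.02 and 0.65 and Dusp1 between -0.05 and 0.54. DESeq2 without null lung 1 gave -0.03 for Fosb, -0.05 for Egr1 and 0.25 for Ier2. The difference between tissues of Egr1 ran from -2.43 to 0.74 and its WT lung against WT liver value from -0.53 to 0.03. In null lung against null liver, leaving out 1 library moved Junb between -0.52 and 0.41, Egr1 between -2.73 and 0.46, Ier2 between -0.03 and 0.55 and Atf3 between -0.52 and 0.63, and Atf3 was 0.00 with upper-quartile factors. The cause was not tested, beyond the smaller number of libraries.

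With the replicate number as a block, 5 members and 28 early response genes were called in liver, where 3304 of 14343 genes were called. In lung 0 early response genes were called, where 0 of 15591 genes were called at all. Between tissues, pairing the organs of each mouse called 8 members in WT mice, where 10448 of 16155 genes were called. Pairing called 5 in null mice (9979 of all genes) and 0 for the difference (0 of all genes), and turned Atf3 in null lung against null liver to 0.14. Under the block it changed no other call of a member between tissues than that of Fos. The median of all genes moved by over 0.1 on the log2 scale under upper-quartile factors, in liver from 0.022 to -0.086 and in null lung against null liver from 0.107 to 0.213, and the share of called genes that were higher in null liver went from 50.1% to 35%. In lung that share was 27.5% of 51 called genes and 0% of 2 with DESeq2 size factors. Length by the longest transcript moved 7 of 40 levels by more than 1 SD. Depth limits Fosb most, at 5 to 17 reads in WT livers.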
